A study of Sus scrofa with 9 samples.

Results

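The genes described here are the 65 named genes of the miniature pig tooth germ whose level at the late bell stage was lower than before by at least 1 log2 unit in both sets of libraries described below. They were chosen from the deposited values. A level is FPKM, fragments scaled to the exon length of the gene and to the mapped fragments of the library, and differences were taken on log2(FPKM + 0.1), a scale on which a low gene's change comes out too small. A gene was eligible with a mean of at least 5 FPKM at E40 and at E50, a symbol not starting with LOC, and no membership of the collagen, laminin, integrin, keratin, miRNA and tRNA symbol families. Of 34580 rows listed, 5767 were eligible. A member had a difference of -1 or lower between E60 library 1 and the mean of the E50 libraries, and again between the mean of E60 libraries 2 and 3 and the mean of the E40 libraries. The lower levels at E60 are therefore the choice itself and are given as a description, without a test.

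RNA was taken from mandibular deciduous molar germs (Dm3) of miniature pig fetuses (Sus scrofa) at embryonic day 40 (E40, cap stage), day 50 (E50, early bell stage) and day 60 (E60, late bell stage). Each stage has 3 libraries. The fetuses were delivered by caesarean section, no group was treated, and whole germs were used, so that enamel organ, dental papilla and dental sac were measured together. The sources used here do not give the sow, litter, fetus sex or the number of germs behind a library, so that any p-value measures only the spread between these libraries, which may be technical. The libraries were made from rRNA-depleted RNA with a directional kit and read as paired ends.

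The libraries differed in depth in a way that the stages do not follow. Whole reads were recovered from the FPKM steps of each gene. They came to between 938527 and 1323530 at E40, between 14362235 and 16674750 at E50, 16124836 in the deep E60 library, and 1380822 and 1760356 in the shallow ones. E60 library 1 therefore has the depth of the E50 libraries and the other E60 libraries that of the E40 libraries, which is why each E60 library is compared here with the stage of its own depth. The deep set is E50 with E60 library 1, called the deep E60 library below, and the shallow set is E40 with E60 libraries 2 and 3, called the shallow ones and given in that order. In the shallow set 3 rows (LOC102158401, TEX14 and LOC102165137) took between 29.0% and 52.3% of the reads, the latter in E60 library 2, against at most 0.611% in the deep set. The labelled stage was checked on 23 epithelial and enamel genes, whose summed FPKM was 358 to 542 at E40, 624 to 683 at E50, 18950 in the deep E60 library, and 3540 and 8690 in the shallow ones. The higher sums at E60 came from the enamel matrix genes on this list. Its 20 other genes summed to 342 to 531 at E40, 615 to 673 at E50, 659 in the deep E60 library, and 156 and 307 in the shallow ones. The check thus rests on the enamel matrix genes and bears on the E60 label only. Of the markers that define the tissue, CDH1 (epithelium) and ALPL (mineralizing mesenchyme) were listed at 0 in every library.

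A tooth germ grows from oral epithelium and neural crest-derived mesenchyme that signal to each other through FGF, WNT, BMP and hedgehog ligands. During the cap and early bell stages its cells divide and the shape of the crown is set by transcription factors of the jaw and tooth mesenchyme and of the enamel organ. At the late bell stage cells leave the cell cycle and become ameloblasts and odontoblasts, which secrete the matrices of enamel and dentin.

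The 65 members held 15 transcription factors and cofactors, 12 signalling ligands, receptors and regulators, 8 genes of DNA replication and mitosis, 7 matrix and secreted proteins, 4 fetal growth and RNA-binding genes, 2 chromatin genes and 17 others, by roles given to them after their values were seen. Of the eligible genes 105, or 1.82%, were at least 1 log2 unit lower in the deep set and 647, or 11.2%, in the shallow set. The members, 1.13% of the eligible genes, were 61.9% of the former list and 10.05% of the latter. None of the 105 was at least 1 log2 unit higher in the shallow set, as 1.35% of all eligible genes were. The median difference of the members was -1.19 in the deep set, with a range of -2.74 to -1.01, where that of all eligible genes was -0.09. In the shallow set it was -1.59, with a range of -6.70 to -1.004, where that of all eligible genes was -0.48, so that values of the shallow set are to be read against a general shift. Relative to these medians 28 members were still at -1 or lower in both sets. Because the germs were measured whole, fewer cells of a type and less RNA per cell cannot be told apart.

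**Figure D1:**
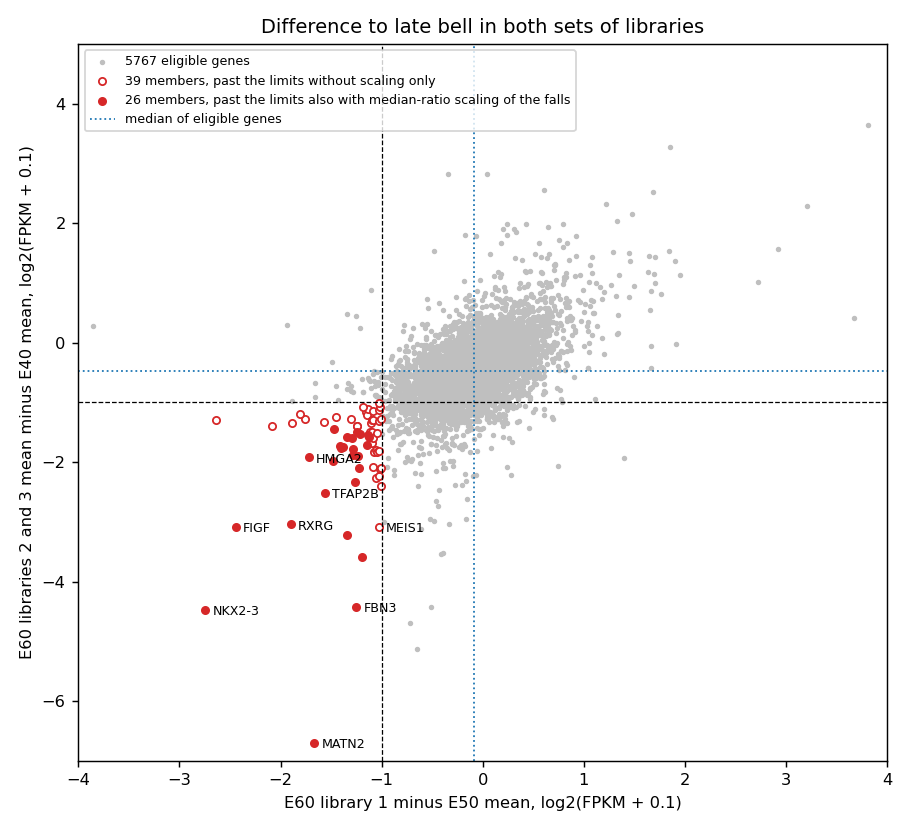
Difference in log2(FPKM + 0.1) of E60 library 1 from the E50 mean (horizontal axis) against that of the mean of E60 libraries 2 and 3 from the E40 mean (vertical axis). Grey points are the 5767 eligible genes, of which 1 lies outside the plotted range, and red points are the 65 members in the lower left corner, filled for the 26 that stay past both limits when the differences are taken on median-ratio scaled values.

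The spread of the libraries is given as a description, since the members were chosen on these values and their counts follow in part from that choice. FPKM in E60 library 1 was below every E50 library for 65 of 65 members and for 40.1% of all eligible genes. E60 libraries 2 and 3 were both below every E40 library for 59 of 65 members (31.3% of all eligible genes), and the exceptions included POLD1, FZD2, MRPL11, LHX6 and E2F1. All 3 E60 libraries lay below all 6 earlier libraries for 43 of 65 members (4.56% of all eligible genes). Such orders across both sets, here and for single genes below, are on unscaled FPKM and can change with scaling. The factors of median-ratio scaling, described below, ranged from 0.512 (E60 library 2) to 1.46 (E50 library 1). Taken alone, E60 library 2 was at least 1 log2 unit below the E40 mean for 63 members, with a median of -2.12 against -0.85 for all eligible genes, and E60 library 3 for 44 members, with a median of -1.17 against -0.05. For 42 members both libraries were that low, and E60 library 3 was above library 2 for 57 members, as for 90.4% of all eligible genes. With library 3 alone, POLD1 was at -0.33, LHX6 at -0.36, E2F1 at -0.18 and FZD2 at -0.13 against E40.

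The reads behind these levels were few in the shallow set. A member had a median of 267 recovered reads in E60 library 1 (18 to 2265), 8 in E60 library 2 (0 to 89) and 21 in E60 library 3 (0 to 154). In E60 library 2 or 3, 14 members had 3 reads or fewer, and 2 had so few in both. A floor of 3 reads covers counting error only.

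Among the transcription factors, NKX2-3, a homeodomain factor, had the largest differences of all members by the smaller of its 2 values. Its FPKM was 11.9, 16.9 and 24.1 at E40, 7.99, 5.81 and 6.42 at E50, 0.912 in the deep E60 library, and 0.367 and 1.15 in the shallow ones. Every E60 library lay below every earlier library, at 13.5% of the E50 mean and 4.31% of the E40 mean, or -2.74 and -4.48 on the log2 scale. E60 libraries 2 and 3 held 1 and 4 reads of it. RXRG, a retinoid X receptor that pairs with other nuclear receptors, was at 15.3, 19.2 and 23.7 FPKM at E40, 21.5, 18.9 and 25.0 at E50, 5.74 in the deep E60 library and 1.16 and 4.23 in the shallow ones. Its E60 values did not overlap with either earlier stage, and the differences were -1.90 in the deep and -3.04 in the shallow set, the latter from 3 and 14 reads at E60.

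TFAP2B, an AP-2 factor of the neural crest, stood at 6.48, 6.84 and 9.61 FPKM at E40, 9.17, 8.89 and 7.28 at E50, 2.78 in the deep E60 library and 0.801 and 1.89 in the shallow ones. The differences were -1.56 and -2.51, the latter from 2 and 6 reads at E60, and no E60 value reached an earlier one. SOX4 and SOX11, closely related HMG-box factors of progenitor cells, were both among the members. SOX4 was measured at 40.0, 49.2 and 57.7 FPKM at E40, 73.1, 54.8 and 72.0 at E50, 25.9 in the deep E60 library and 10.7 and 24.5 in the shallow ones. For SOX11 the values were 6.32, 11.6 and 12.7 at E40, 13.7, 13.3 and 11.9 at E50, 5.26 in the deep E60 library and 1.77 and 3.77 in the shallow ones. The differences of the pair were close to each other in the deep set, at -1.35 and -1.28, and were -1.57 and -1.88 in the shallow set, with all E60 values below all earlier ones for both genes.

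Factors that mark the jaw and tooth mesenchyme made up most of the rest. TWIST1, a bHLH factor of the cranial mesenchyme, was at 50.4, 63.0 and 86.3 FPKM at E40, 46.6, 38.3 and 57.7 at E50, 19.9 in the deep E60 library and 11.3 and 26.9 in the shallow ones. PRRX1, a paired-related homeobox factor of the facial mesenchyme, had 7.94, 9.21 and 11.8 FPKM at E40, 18.3, 14.3 and 8.55 at E50, 3.46 in the deep E60 library and 3.24 and 4.23 in the shallow ones. PAX9, without which teeth stop at the bud stage in mice, had 11.5, 15.4 and 15.1 FPKM at E40, 24.9, 23.5 and 19.8 at E50, 10.6 in the deep E60 library and 5.09 and 7.67 in the shallow ones. For these 3 genes the E60 libraries lay below every earlier library, and the differences in the deep and the shallow set were -1.23 and -1.89 for TWIST1, -1.89 and -1.34 for PRRX1, and -1.09 and -1.14 for PAX9.

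MAB21L1, a gene of embryonic eye and facial development, was the steadiest of these on unscaled FPKM. It had 31.5, 28.1 and 32.3 FPKM at E40, 28.1, 30.3 and 27.6 at E50, 12.5 in the deep E60 library and 16.5 and 12.7 in the shallow ones. Its 6 earlier values lay within 5 FPKM of each other and its E60 values were all below 17, with differences of -1.19 and -1.07. This closeness spans both sets without scaling between libraries. With median-ratio scaling its differences were -1.07 and -0.63, the latter not past the limit. MEIS1, a TALE homeodomain partner of HOX proteins, had 23.8, 27.1 and 37.8 FPKM at E40, 10.7, 10.21 and 11.5 at E50, 5.25 in the deep E60 library and 1.67 and 6.57 in the shallow ones. It was thus highest at E40, intermediate at E50 and lowest at E60, and the difference in the shallow set, -3.08, was larger than that in the deep set, -1.03. E60 libraries 2 and 3 held 3 and 15 reads of MEIS1. LHX6, a LIM homeodomain factor of the oral mesenchyme, had 15.4, 18.4 and 33.5 FPKM at E40, 40.3, 29.7 and 38.1 at E50, 17.5 in the deep E60 library and 5.59 and 16.4 in the shallow ones. Here 1 E60 value of the shallow set lay above the lowest E40 value, and the differences were -1.03 and -1.13. The remaining factors and cofactors were HES6, a bHLH protein (-1.15 and -1.72), NFATC4, a calcineurin-regulated factor (-1.14 and -1.54), CTBP2, a co-repressor (-1.15 and -1.21), and MDFI, an inhibitor of myogenic bHLH factors (-1.01 and -2.09).

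**Figure D2:**
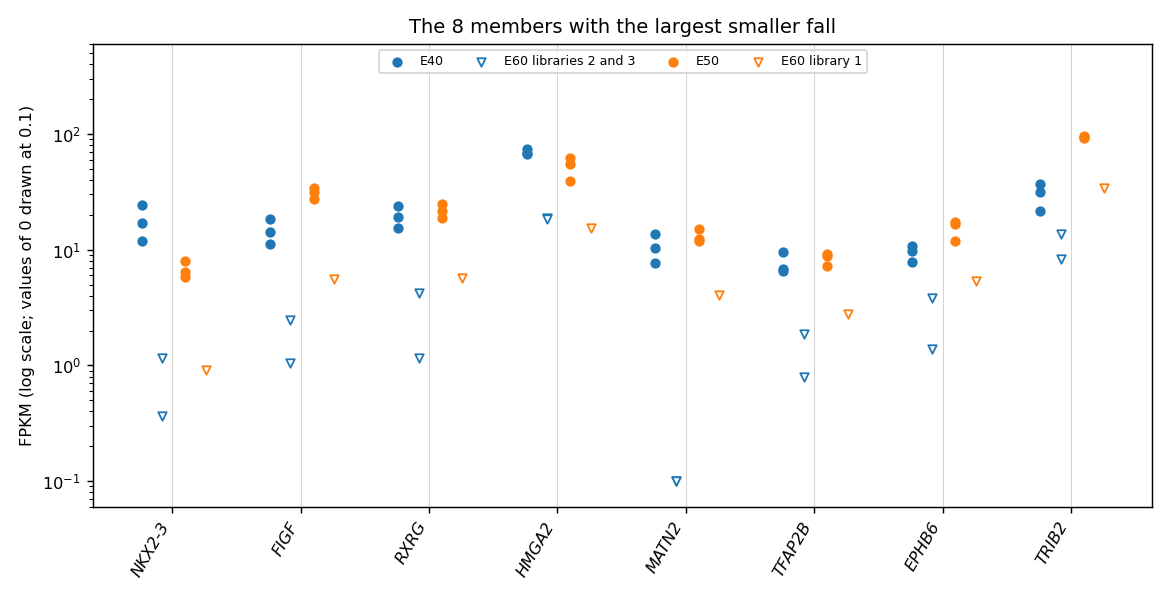
FPKM of the 8 members with the largest differences by the smaller of their 2 values, on a log axis, with 1 point per library and a value of 0 drawn at 0.1. The points of E60 library 1 lie below those of E50 for every gene, and MATN2 is at 0 in E60 libraries 2 and 3.

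Among the fetal growth genes, HMGA2 encodes an architectural chromatin protein that is abundant in embryos and repressed by the let-7 miRNAs. Its FPKM was 68.7, 67.5 and 74.3 at E40, 54.8, 39.5 and 62.6 at E50, 15.5 in the deep E60 library and 18.7 and 18.3 in the shallow ones. The 3 E60 libraries were within 4 FPKM of each other on these unscaled values. They stood at 29.6% of the E50 mean and 26.4% of the E40 mean (-1.72 and -1.92). Median-ratio scaling divides E60 libraries 1, 2 and 3 by 1.31, 0.512 and 0.850, so that their closeness does not hold with it. The scaled differences of HMGA2 were -1.60 and -1.47. Its paralog HMGA1 had 13.4, 9.85 and 9.06 FPKM at E40, 14.0, 11.8 and 9.90 at E50, 5.61 in the deep E60 library and 2.37 and 3.72 in the shallow ones. IGF2BP1, a fetal mRNA-binding protein, was at 7.44, 6.64 and 12.1 FPKM at E40, 19.5, 17.5 and 17.2 at E50, 8.78 in the deep E60 library and 2.38 and 4.66 in the shallow ones. The differences were -1.06 and -1.80 for HMGA1 and -1.03 and -1.31 for IGF2BP1, whose value in E60 library 1 lay within its E40 range. MEX3A, a KH-domain RNA-binding protein, differed by -1.09 and -1.67. Of the 14 eligible genes of the LIN28 and let-7 list, HMGA2, HMGA1 and IGF2BP1 were members, which is 21.4% against 1.13% of all eligible genes, and with median-ratio scaling the list held 1 member, HMGA2. IGF2BP3, a relative of IGF2BP1, was at -0.10 and 0.59 and was looked at after its values were seen.

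The replication members were UHRF1, MCM2, MCM3, POLD1 and E2F1. UHRF1, which brings the maintenance DNA methyltransferase to newly copied DNA, was at 30.1, 38.8 and 43.5 FPKM at E40, 54.6, 40.4 and 43.7 at E50, 17.5 in the deep E60 library and 8.15 and 14.8 in the shallow ones. MCM2 and MCM3 are subunits of the replicative helicase. MCM2 had 24.4, 31.5 and 35.7 FPKM at E40, 68.4, 53.7 and 60.6 at E50, 30.0 in the deep E60 library and 9.78 and 20.7 in the shallow ones. For MCM3 the values were 27.1, 35.0 and 42.7 at E40, 64.8, 56.0 and 59.6 at E50, 28.0 in the deep E60 library and 7.49 and 19.4 in the shallow ones. All E60 values of UHRF1 lay below all earlier ones. For both MCM genes E60 library 1 lay within the E40 range, although it was below every E50 library, and each of the other E60 libraries was below every E40 library. The differences were -1.38 and -1.74 for UHRF1, -1.01 and -1.08 for MCM2, and -1.10 and -1.501 for MCM3. POLD1, the catalytic subunit of DNA polymerase delta, differed by -1.25 and -1.39, and E2F1, a transcription factor that drives genes of the S phase, by -1.01 and -1.28, both with 1 E60 value of the shallow set inside the E40 range.

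The mitotic members were NEK2, a centrosomal kinase, KIF14, a kinesin of cytokinesis, and INCENP, a scaffold of the chromosomal passenger complex. NEK2 had 11.6, 11.3 and 15.04 FPKM at E40, 23.4, 21.3 and 20.4 at E50, 9.69 in the deep E60 library and 4.12 and 7.54 in the shallow ones, without overlap between E60 and either earlier stage. Its differences were -1.15 in both sets, those of KIF14 were -1.05 and -1.51, and those of INCENP were -1.30 and -1.28. Of the 44 eligible mitosis genes, 44 were below 0 in both sets, with medians of -0.67 and -0.77, and 2, or 4.55%, were members (INCENP is not on that list). Of the 40 eligible replication genes, 37 were below 0 in both sets, with medians of -0.66 and -0.77, and 5, or 12.5%, were members. Among all eligible genes 3281 of 5767 were below 0 in both sets, and 1.13% were members. With median-ratio scaling, which divides each library by a factor from genes above 0 in all libraries, 32 mitosis and 32 replication genes remained below 0 in both sets, as did 1910 of all 5767, the medians of both lists were still below 0, and the lists held 0 and 1 members. MKI67, the proliferation marker, was at -0.003 in the deep and -0.07 in the shallow set, and was looked at after the values were seen.

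**Figure D3:**
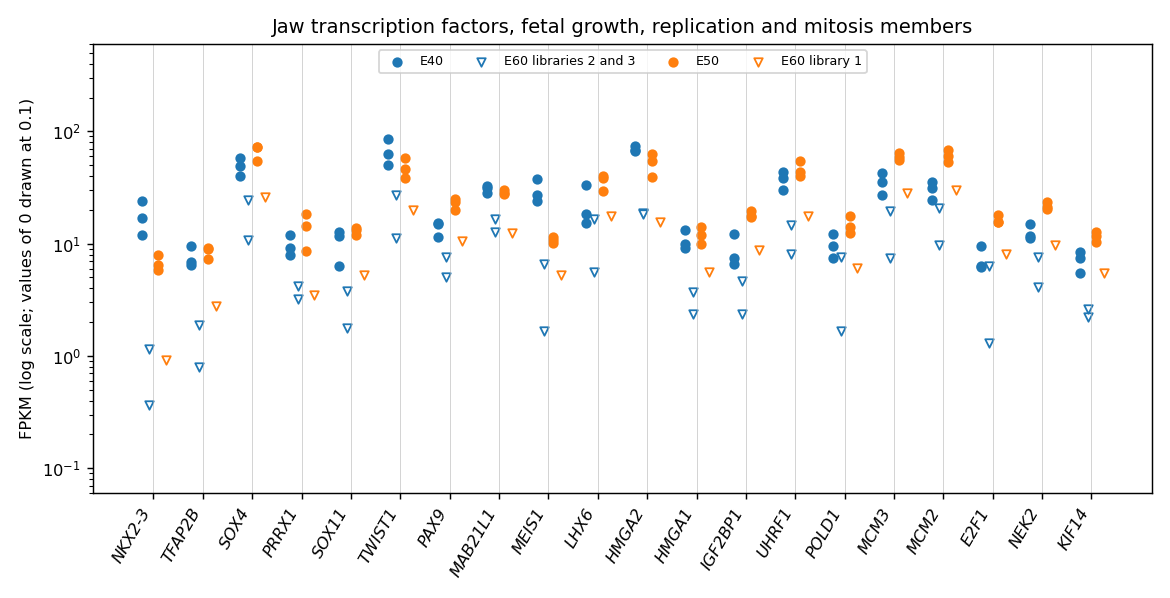
FPKM per library, on a log axis, of the members on the lists of jaw and tooth transcription factors, fetal programme, DNA replication and mitosis, with 1 point per library. On this unscaled FPKM HMGA2 shows nearly equal values in the 3 E60 libraries. MCM2, MCM3 and E2F1 are among the genes whose E50 points lie above the E40 points. The median of all eligible genes was also higher at E50, by 0.87 log2 units.

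The signalling members included ligands, receptors and inhibitors of different pathways. FGF10, a ligand made by the dental mesenchyme, was at 41.7, 38.7 and 30.0 FPKM at E40, 13.4, 16.8 and 16.2 at E50, 6.45 in the deep E60 library and 11.9 and 14.0 in the shallow ones. Its differences were -1.24 and -1.49, and it was highest at E40, although E60 library 3 lay above the lowest E50 library. FGF19, another FGF ligand, had 12.9, 10.1 and 19.4 FPKM at E40, 48.3, 41.2 and 43.4 at E50, 20.4 in the deep E60 library and 3.29 and 6.88 in the shallow ones. It was highest at E50, and its differences were -1.11 and -1.497. FIGF, the older symbol of the lymphangiogenic growth factor VEGFD, had 11.2, 14.1 and 18.5 FPKM at E40, 27.3, 31.3 and 34.3 at E50, 5.59 in the deep E60 library and 1.04 and 2.45 in the shallow ones. Its differences, -2.44 and -3.08, were the only ones beside those of NKX2-3 of -2 or lower in both sets. E60 libraries 2 and 3 held 3 and 9 reads of FIGF. Its shallow difference was -2.50 without E60 library 2 and -3.66 without E60 library 3.

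On the WNT side, WIF1, a secreted inhibitor, was at 8.36, 6.10 and 7.54 FPKM at E40, 19.3, 16.5 and 21.1 at E50, 7.91 in the deep E60 library and 2.58 and 2.83 in the shallow ones. FZD2, a WNT receptor, had 15.9, 29.2 and 28.8 FPKM at E40, 77.9, 61.4 and 84.8 at E50, 34.5 in the deep E60 library and 4.21 and 21.7 in the shallow ones. Both peaked at E50, and E60 library 3 of FZD2 lay inside the E40 range. The differences were -1.24 and -1.39 for WIF1 and -1.10 and -1.30 for FZD2. ETV4, an ETS factor induced by FGF signalling, differed by -1.09 and -1.60, and DUSP4, a phosphatase that limits MAP kinases, by -1.76 and -1.28. EPHB6, an ephrin receptor without kinase activity, had 7.78, 9.67 and 10.8 FPKM at E40, 17.4, 11.9 and 16.8 at E50, 5.35 in the deep E60 library and 1.38 and 3.79 in the shallow ones, all E60 values below all earlier ones (-1.48 and -1.97). Its relative EPHB2 differed by -1.02 and -2.12. TRIB2, a pseudokinase, had 21.4, 31.5 and 37.1 FPKM at E40, 94.5, 92.3 and 96.6 at E50, 34.0 in the deep E60 library and 8.32 and 13.8 in the shallow ones, with differences of -1.47 and -1.44. The chemokine CXCL12 differed by -1.28 and -1.79.

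IL17D, a cytokine, and NNAT, an imprinted gene of neuronal and endocrine cells, were lower at E60 than at the earlier stage within each set, but not across the sets. IL17D was at 33.1, 38.8 and 27.4 FPKM at E40, 4.74, 4.27 and 7.28 at E50, 2.10 in the deep E60 library and 10.8 and 10.8 in the shallow ones. NNAT had 51.2, 48.3 and 45.4 FPKM at E40, 14.3, 12.3 and 16.9 at E50, 4.02 in the deep E60 library and 22.3 and 20.0 in the shallow ones. These were the 2 members for which the mean of E60 libraries 2 and 3 was above the E50 mean, as it was for 9.42% of all eligible genes, so that their order of E50 and E60 depends on which E60 library is read.

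Of the 55 eligible genes on the list of tooth signalling genes, 4 were members (WIF1, FGF10, FZD2 and ETV4), or 7.27% against 1.13% of all eligible genes. The list's medians, -0.08 and -0.36, were near those of all eligible genes and turned to 0.04 and 0.07 with median-ratio scaling, with which the list held 1 member. SHH, the ligand of the enamel knot, was at 0.07 and 1.48, and BMP4, a ligand of the dental mesenchyme, at 0.27 and 0.12. These non-members were chosen after their values were seen.

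The 7 matrix and secreted members had a median of -2.08 in the shallow set and -1.25 in the deep set, and MATN2 and FBN3 among them rested on few reads. MATN2, a matrilin that links matrix filaments, had 7.72, 10.3 and 13.7 FPKM at E40, 11.9, 12.4 and 15.1 at E50, 4.04 in the deep E60 library and 0 in both shallow ones. The E40 libraries held 2, 3 and 5 reads of it, and 3 reads would have been worth 7.87 and 6.17 FPKM in E60 libraries 2 and 3. Against that floor, the E40 mean bounds its level as at least 1.34-fold and 1.71-fold lower, and its difference of -6.70 is not a measure of size. FBN3, a fibrillin of fetal tissue, was at 0 in E60 library 2 and at least 2.26-fold lower, with 2.74 FPKM in library 3 from 2 reads. MGAT3, a glycosyltransferase grouped with the other genes, was at 0 in E60 library 2 and at least 3.47-fold lower there, with 4.34 FPKM in library 3 from 7 reads. These were the 3 members listed at 0 in any E60 library.

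PI15, a secreted peptidase inhibitor, rested on more reads, 17 and 45 in E60 libraries 2 and 3. It had 47.0, 55.3 and 63.9 FPKM at E40, 97.1, 137 and 120.2 at E50, 45.9 in the deep E60 library and 4.02 and 8.35 in the shallow ones. The level stood at 38.9% of the E50 mean in the deep set and at 11.2% of the E40 mean in the shallow set (-1.35 and -3.22). CCDC80, a secreted protein of mesenchymal cells, had 9.997, 11.9 and 13.6 FPKM at E40, 39.5, 41.7 and 36.3 at E50, 9.13 in the deep E60 library and 3.40 and 5.63 in the shallow ones. No E60 value reached an earlier one, and the differences were -2.09 and -1.40. ELN, elastin, differed by -1.11 and -1.35, FGL2, a secreted fibrinogen-like protein, by -1.04 and -1.82, and SUSD4, a complement regulator, by -1.08 and -2.08.

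The chromatin members were CBX2, a subunit of Polycomb repressive complex 1 (-1.21 and -1.53), and NPM2, a histone chaperone best known from the egg (-1.22 and -2.09). Of the 34 eligible chromatin genes 1, CBX2, was a member, or 2.94% against 1.13% of all eligible genes. On that list 31 genes were below 0 in both sets, as were 3281 of all 5767, and the medians were -0.42 and -0.74. FAM213B, an enzyme of prostaglandin metabolism, had 27.2, 46.3 and 52.4 FPKM at E40, 43.1, 29.6 and 37.7 at E50, 13.7 in the deep E60 library and 7.05 and 20.1 in the shallow ones, without overlap between E60 and either earlier stage (-1.40 and -1.76). CLDN4, a tight junction claudin, was the 1 member among the 15 eligible epithelial genes (-1.01 and -2.41), or 6.67% against 1.13% of all eligible genes. Its shallow value rests on 2 and 18 reads, and was -1.07 without E60 library 2 and -3.74 without E60 library 3. Of the 16 eligible genes of dental mesenchyme, odontoblasts and bone, 3 were members (PAX9, PRRX1 and TWIST1). That is 18.8% against 1.13% of all eligible genes, and 1 was a member with median-ratio scaling.

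The others were of mixed function. PDZD4 (-1.57 and -1.32), AIF1L (-1.26 and -2.33), TMEM132C (-1.46 and -1.24), KCTD12 (-1.13 and -1.58), NCS1, a neuronal calcium sensor (-1.13 and -1.11), MRPL11, a protein of the mitochondrial ribosome (-1.08 and -1.29), SAMD14 (-1.07 and -1.83), PANX1, a membrane channel (-1.06 and -2.26), GRTP1 (-1.02 and -1.82) and SLC7A2, a carrier of cationic amino acids (-1.02 and -2.23) passed both limits. MRPL11 had 17.8, 2.98 and 10.3 FPKM at E40, the second from 3 reads, and E60 libraries 2 and 3 lay inside that range at 3.03 and 3.56.

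The list of jaw and tooth transcription factors held the largest share of members among the lists with at least 10 eligible genes. Of its 36 eligible genes, 10 were members, or 27.8% against 1.13% of all eligible genes, 28 were below 0 in both sets, and the medians were -0.68 and -0.80. With median-ratio scaling the medians were -0.56 and -0.36, 24 genes were below 0 in both sets, and the list held 4 members. Other factors of the list passed 1 limit but not both, among them BARX1 (-1.66 and -0.67) and DLX1 (-1.08 and -0.65) in the deep set and LEF1 (-0.95 and -2.09) in the shallow set. MSX1 (0.06 and -0.59) was near 0 in the deep set, and SP6, a factor of the enamel organ, was higher at E60 in both (0.43 and 1.99). These non-members too were chosen after their values were seen. Of the immediate early and stress genes, 0 of 13 were members, with medians of -0.01 and -0.16. These 13 are too few to read against the 1.13% of all eligible genes. The lists were written with earlier results of these data known, so that their shares are descriptions.

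**Figure D4:**
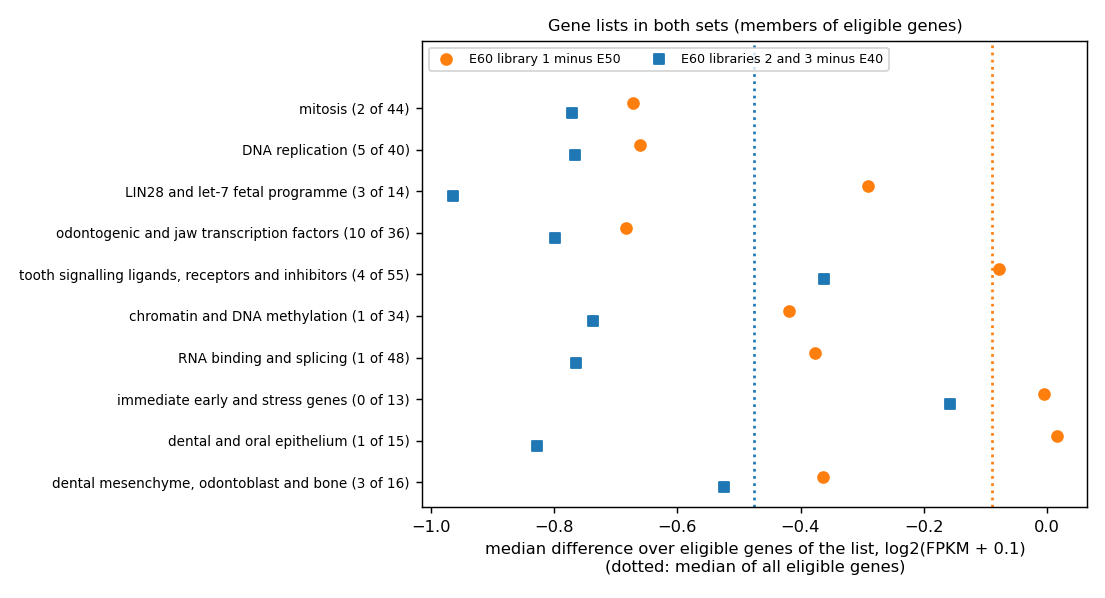
Median difference in log2(FPKM + 0.1) at E60 in the deep and the shallow set for each list with at least 10 eligible genes. Dotted lines mark the medians of all eligible genes, -0.09 and -0.48, and 7 of the lists lie below both, all but those of tooth signalling, immediate early and stress genes, and epithelium.

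Of the markers of other cell types, 13 were eligible and 0 were members, a number too small to read against the 1.13% of all eligible genes. Their summed FPKM changed between stages in both directions. The 29 skeletal muscle markers found summed to between 423 and 651 at E40 and to 70.8 and 98.2 in E60 libraries 2 and 3, but to between 68.8 and 91.5 at E50 and 154 in E60 library 1, with TNNT3, CKM, NEB and PAX7 listed at 0 in every library. The 22 markers of dental mesenchyme, odontoblasts and bone summed to between 1833 and 2647 at E40, between 4275 and 4991 at E50, 4924 in the deep E60 library and 1614.5 and 3354 in the shallow ones. The 20 epithelial markers without enamel matrix genes summed to between 342 and 531, between 615 and 673, 659, and 156 and 307. These sums are unlike, since the dentin and bone matrix genes were kept in the mesenchymal one. In the deep set neither sum in E60 library 1 was below the E50 range, while in the shallow set the epithelial sum was below the E40 range in both E60 libraries and the mesenchymal sum in E60 library 2 only. The cartilage sum was 217 to 260 at E50 and 410 in E60 library 1, and 24.4 to 27.1 at E40 and 55.9 and 102 in E60 libraries 2 and 3. The erythroid sum was below the E50 range in E60 library 1, at 781 against 838 to 1131, and 139 and 403 in E60 libraries 2 and 3 against 283 to 465 at E40. The neuronal sum was 112 against 127 to 135 at E50 in the deep set, and 41.0 and 65.4 against 57.3 to 74.6 at E40 in the shallow set. For endothelium it was 144 against 124 to 147, and 60.9 and 115 against 70.5 to 98.5. Leukocyte markers summed to 47.3 against 31.5 to 36.0, and to 16.3 and 31.9 against 14.9 to 19.3, and those of Schwann cells and melanocytes to 25.5 against 20.3 to 23.9, and to 21.1 and 19.6 against 19.2 to 23.5. Their part in the members' values was not tested.

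From E40 to E50, 4 of 65 members rose and 3 fell. The rule did not use this difference, although the same E40 and E50 values are the levels that it compared E60 with. The test was limma on 19618 genes with an adjusted p under 0.05 after Benjamini-Hochberg correction and a log2 difference of at least 1. All genes were called higher in 16.8% and lower in 21.8%, and the eligible genes in 21.7% and 5.01%. The median difference of the members was 0.37, against 0.87 for the eligible genes and 0.55 for all genes tested. Its direction depends on the scaling: with median-ratio scaling it was -0.28 against -0.09 for all genes tested, with 3 members called higher and 9 lower (12.2% and 24.9% of all genes), and with library totals without the 3 abundant rows it was -0.19 against 0.004, with 2 higher and 8 lower (12.9% and 24.5% of all genes). CCDC80 rose by 1.73 on the log2 scale (SE 0.40, adjusted p = 0.0147), TRIB2 by 1.69 (SE 0.49, adjusted p = 0.0282), FGF19 by 1.69 (SE 0.60, adjusted p = 0.0495) and WIF1 by 1.36 (SE 0.47, adjusted p = 0.0449), and each was higher in every E50 library than in any E40 library. IL17D fell by 2.61 (SE 0.61, adjusted p = 0.0153), NNAT by 1.74 (SE 0.59, adjusted p = 0.0443) and FGF10 by 1.24 (SE 0.37, adjusted p = 0.0301), again without overlap. NKX2-3, at -1.33 (SE 0.50, adjusted p = 0.0598), and MEIS1, at -1.42 (SE 0.50, adjusted p = 0.0509), did not pass. The SEs and p-values above come from a spread shared by all 9 libraries. That spread includes the difference between E60 library 1 and the other E60 libraries, which belong to different sets. With only the E40 and E50 libraries, limma called 13 higher and 5 lower (33.1% and 25.4% of all genes). The counts also depend on single libraries, as those of all genes do. Without E40 library 1, or E50 library 2 or 3, limma called 0 members in either direction. In these fits 0.0716% to 0.366% of all genes were called higher and 0.22% to 0.727% lower. At an unadjusted p under 0.05, 3 to 5 members were higher and 2 to 5 lower. Limma-voom with all libraries called 2 higher and 5 lower (10.5% and 24.5% of all genes). Without E40 library 2, limma called 1 higher and 0 lower (4 at an unadjusted p under 0.05), against 3.54% and 13.6% of all genes. Without E50 library 1 it called 1 of each (2.57% and 15% of all genes). Without E40 library 3 it called 2 of each (9.12% and 18.4% of all genes). Without E60 library 3 it called 2 higher and 4 lower (13% and 21.7% of all genes). Without E60 library 1 the counts were 12 higher and 5 lower, where 30.5% and 24.2% of all genes were called, and without E60 library 2 they were 11 and 5, where 28.6% and 23.8% were. Since E40 is shallow and E50 deep throughout, stage and library set cannot be told apart in this comparison.

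With all 9 libraries in the same fit, and only as a description since the rule used these differences, 4 members (NKX2-3, HMGA2, FGF10 and MEIS1) passed the limits as lower from E40 to E60, where 1.14% of all genes did. From E50 to E60 limma put 0 members past them, where 0.0204% of all genes passed. Limma-voom on the recovered reads put 3 past them, where 0.051% of all genes passed. At an unadjusted p under 0.05, limma had 59 members lower, where 18% of all genes were. The E60 group of that fit mixes libraries of both sets.

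The members nearest the limits were E2F1 (-1.01 and -1.28), MDFI (-1.01 and -2.09) and TRAP1, a mitochondrial chaperone (-1.03 and -1.004). Just outside lay IGLON5 (-0.999 and -1.53), SPRY2, an inhibitor of FGF signalling (-0.98 and -1.22), and TRIL (-1.89 and -0.98). TRAP1 had 50.9, 51.3 and 57.2 FPKM at E40, 60.8, 48.3 and 48.2 at E50, 25.5 in the deep E60 library and 23.7 and 29.4 in the shallow ones. On this unscaled FPKM its E60 values lay below all earlier ones. With median-ratio scaling its differences were -0.91 and -0.56, neither past the limits. Median-ratio scaling moves nearly all genes alike and brought the medians of the members to -1.07 and -1.15. With the differences scaled in this way and the eligible genes kept, 26 members stayed past both limits, among them NKX2-3, FIGF, RXRG, HMGA2, TFAP2B, SOX4, SOX11, TWIST1, UHRF1, CBX2 and FGF10.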

How the data were processed

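RNA of Dm3 germs was measured in 3 libraries for each of E40, E50 and E60, grouped by the deposited labels. The authors removed low-quality reads, aligned pairs of 125 bp with TopHat (to Sscrofa10.2 by the submitters' processing notes), and deposited FPKM per gene, with no further scaling between libraries stated. How reads shared by paralogs were counted is not given in the sources used here. The deposited values are not counts. The authors name DESeq, Cuffdiff and EBSeq, none of which was run here, and limma-voom was run on recovered reads as an alternative.

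Members were found on log2(FPKM + 0.1), and the differences were recomputed with other pseudocounts, filters, scalings and libraries. The members, lists and tests were chosen with earlier results of these data known. E40 was compared with E50 with limma 3.58.1 in R 4.3.3 (mean-variance trend, a coefficient per stage, Benjamini-Hochberg adjustment, genes that reached 1 FPKM in 2 or more libraries). On values simulated with the spread of these libraries, limma passed 1, 120 and 180 of 200 genes changed by 2, 4 and 8 log2 units from E40 to E50 among 19618. The measured fit called many more genes, so its adjusted threshold is less strict than in this simulation. Whole reads were recovered from the steps of FPKM values, and a floor of 3 reads covers counting error only. To be named, genes had to be among the 15 members with the largest smaller difference, the first 4 members of a list, all members of the fetal and jaw lists, the 3 members nearest the limits on either side, or the 3 largest E40 to E50 calls per direction, 40 in all, and the other members were named after their values were seen. Of 65 symbols, 64 matched RefSeq, all protein coding, and FIGF did not. The RefSeq table is of another assembly (Sscrofa11.1), so no positions are given, and sequences were not used here. Other steps used Python 3.11.15, numpy 2.4.6, pandas 2.3.3 and matplotlib 3.10.9. A few genes are not reported here.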

Additional observations from a re-analysis of the deposited data

How the results depend on the processing

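The 65 members became 23 with median-ratio scaling (22 of them kept), 39 with upper-quartile scaling, 26 with median-ratio scaling of the differences alone (added after the values were seen), 39 with a mean of at least 10 FPKM, 138 with at least 1 FPKM and 6 with a difference of at least 1.5. Leaving out 1 library at a time, other than E60 library 1, gave between 47 and 81, and 28 members were kept in all of these settings. E60 library 1 was not left out, since the difference of the deep set rests on it alone. Pseudocounts of 1 and 0.01 gave 45 and 66, a rule without overlap 59, and library totals without the 3 abundant rows 64, of which 55 were among the 65. The values of the named members moved by less than the replicate spread in 371 recomputations and by more in 109. Leaving out 1 reference library of 3 cannot move a mean by as much as that spread. Those recomputations were therefore bound to count as less, and the split is no measure of stability.

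Of members higher from E40 to E50, 4 in the report, there were 2 without a filter, 13 with only the E40 and E50 libraries, 2 with limma-voom, 2 without the 3 rows, and 0 to 12 with 1 library left out. Of members lower, 3 in the report, there were 5 with a pseudocount of 1, 9 with median-ratio scaling, 2 without a filter, 5 with only the E40 and E50 libraries, 5 with limma-voom, 8 without the 3 rows, and 0 to 5 with 1 library left out. Of all genes, 9.31% were called higher and 13.8% lower without a filter, and 33.1% and 25.4% with only the E40 and E50 libraries. A replicate block gave 1 higher and 1 lower, against 7.41% and 18.6% of all genes. Deviations of same-numbered libraries from their stage means had correlations of -0.515 to 0.109, and those of differently numbered libraries -0.378 to 0.423. Since deviations within a stage sum to 0, these values cannot tell whether equal numbers share a sow or litter. Without E60 library 1 the counts were 12 and 5, and without E60 library 2 they were 11 and 5. From E50 to E60, limma-voom put 3 members past the limits as lower where limma put 0. The cause was not tested. The few reads of the shallow set limit the size of the differences for members with 3 reads or fewer.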

Other observations

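Rows kept out by their symbols also held lower levels at E60. Of 1576 LOC rows with the required level, 23, or 1.46%, passed both limits, and of 109 rows of the barred families, 1, or 0.917%. That row was KRT15, a keratin of basal epithelial cells, at 552, 611 and 750 FPKM at E40, 85.4, 64.7 and 91.2 at E50, 27.5 in E60 library 1 and 8.76 and 37.6 in E60 libraries 2 and 3. Every E60 value lay below every earlier one.

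In the opposite direction, 64 eligible genes, or 1.11%, were at least 1 log2 unit higher in E60 library 1 than the E50 mean, 78, or 1.35%, were so in the shallow set, and 24, or 0.416%, in both. The 24 were 37.5% of the former list and 30.8% of the latter.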
